A study of Homo sapiens with 6 samples.

Results

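The miR-99 and miR-100 family and the miR-125 family of miRNAs were described in HuH7 cells, an established human hepatocellular carcinoma line, after 24 h with cisplatin at 1 µg/ml and after 24 h without it. Cisplatin is a platinum drug that crosslinks DNA, and the series names miRNAs tied to its antitumour effect as its subject. The members were taken by name and arm, and all 6 were found among the 2019 human probes of the array, with 1 spot each. They are hsa-miR-99a-5p (MIMAT0000097), hsa-miR-100-5p (MIMAT0000098), hsa-miR-99b-5p (MIMAT0000689), hsa-miR-125a-5p (MIMAT0000443), hsa-miR-125a-3p (MIMAT0004602) and hsa-miR-125b-5p (MIMAT0000423). Total RNA from 3 cisplatin and 3 control samples of the same line was hybridised to 1 array each, and both groups grew in the same serum-supplemented medium. The samples are numbered 1 to 3 in each group, and nothing in the labels says that they came from separate cultures. The p-values below therefore speak of the spread among these 6 samples alone, and that spread may be technical.

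A mature miRNA guides the silencing complex to messenger RNAs mainly through its seed, bases 2 to 8 from the 5′ end. miR-125 is the vertebrate counterpart of the worm developmental timing miRNA lin-4, and the miR-99 and miR-100 family is among the most ancient of animal miRNAs. In vertebrates both families lie in clusters with a let-7 gene. miR-99a and miR-100 are known to target MTOR, a kinase of growth signalling, and miR-125b is known to target the death factor BAK1. In liver, miR-99a and miR-125b are abundant and have often been reported lower in hepatocellular carcinoma.

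The 6 members carry 3 seeds, shown here in capitals within each mature sequence (RefSeq, GRCh38.p14), because the seed sorts them into families.
miR-99a-5p: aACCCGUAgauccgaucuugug
miR-100-5p: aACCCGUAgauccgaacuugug
miR-99b-5p: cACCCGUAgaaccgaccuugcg
miR-125a-5p: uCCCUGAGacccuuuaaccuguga
miR-125b-5p: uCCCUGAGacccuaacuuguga
miR-125a-3p: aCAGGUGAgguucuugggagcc
With positions counted from 1 at the 5′ end, miR-99a-5p and miR-100-5p differ at 1 of 22 bases (U16A, miR-99a-5p first). miR-99b-5p differs from miR-99a-5p at 4 of 22 (A1C, U11A, U16C and U21C, miR-99a-5p first). Position by position and without gaps, miR-125a-5p and miR-125b-5p are identical up to base 13 and differ at 7 of the first 22. They are 24 and 22 bases long, and no alignment with gaps was made. Such an alignment could give fewer differences, so the 7 does not rank this pair against the others. How far each probe separates such close relatives was not tested, and probe sequences were not used here. miR-4319 was the other array miRNA found with a member's seed, that of miR-125, among the 1719 of 2042 array names that matched a RefSeq mature miRNA. It was above the detection limit on 1 of 6 arrays.

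In GRCh38.p14 the genes form 3 clusters of 3 hairpins each. MIR99B, MIRLET7E and MIR125A lie within 728 bases on the plus strand of chromosome 19 (chr19:51692612-51693339), inside the intervals of the protein-coding gene SPACA6 and of the lncRNA SPACA6-AS1. MIR125B1, MIRLET7A2 and MIR100 lie on the minus strand of chromosome 11 (chr11:122099757-122152308) within the lncRNA gene MIR100HG. MIR99A, MIRLET7C and MIR125B2 lie on the plus strand of chromosome 21 (chr21:16539089-16590325) within the lncRNA gene MIR99AHG. Exons and introns of these host genes were not used here. Mature miR-125b-5p is the same sequence from chromosomes 11 and 21, so its probe sums both genes. The hairpins of the chromosome 19 cluster that give members are printed with their mature arms in capitals, since MIR125A is the hairpin whose 2 arms are both members.
MIR99B: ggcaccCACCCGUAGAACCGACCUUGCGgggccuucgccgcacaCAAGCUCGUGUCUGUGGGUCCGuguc
MIR125A: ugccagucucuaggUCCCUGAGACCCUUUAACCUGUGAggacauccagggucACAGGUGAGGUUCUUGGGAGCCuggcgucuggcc

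Array quality was compared before the members. Cisplatin arrays had 713, 329 and 643 human probes above the detection limit, against 703, 500 and 738 on control arrays. That limit lies 2 SD above the mean of the 925 blank spots, and it ranged from 209 to 247 intensity units. Of the hepatocyte markers, 4 of 4 were detected on all 6 arrays, with miR-122-5p, the most abundant miRNA of hepatocytes, at 4337 to 4901 on cisplatin and 4739 to 5169 on control arrays. miR-122-3p had 280 to 326 on cisplatin and 303 to 372 on control arrays, miR-192-5p 1517 to 2150 on cisplatin and 1322 to 1634 on control arrays, and miR-194-5p 1634 to 2488 on cisplatin and 1343 to 1955 on control arrays. The 4 summed to 7768 to 9788 on cisplatin and 7707 to 9036 on control arrays. In the limma test between groups 0 of 4 passed. Both arms of miR-122 were nevertheless lower on cisplatin arrays after normalization, without overlap of the groups. Such separation, in either direction, was seen for 18.8% of the tested probes, and the raw groups of both arms overlapped. Normalization gave miR-122-5p the same log2 value, 12.24, on all 3 control arrays. Its raw spread there therefore does not enter the interval. The log2 differences were -0.21 for miR-122-5p (95% interval -0.33 to -0.082) and -0.37 for miR-122-3p (95% interval -0.55 to -0.19). The limma adjusted p was 0.129 for each. The differences of miR-192-5p and miR-194-5p were -0.058 and 0.021, and their groups overlapped. Of 17 markers of blood, endothelium, muscle and stroma or nerve, 3 were above the limit on all 6 arrays (miR-126-3p, miR-143-3p and miR-145-5p). Only these 3 entered the limma test, and 0 of 3 passed, while no blood or neural marker was tested. Summed raw foreground of the muscle and stroma markers was 1309 to 1501 on cisplatin and 1384 to 1454 on control arrays, and that of the endothelial markers 476 to 573 on cisplatin and 468 to 570 on control arrays. The blood markers summed to 1272 to 1393 on cisplatin and 1306 to 1473 on control arrays, and the neural markers to 644 to 664 on cisplatin and 640 to 696 on control arrays. The number of arrays limits the precision of every value below.

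None of the 6 members passed the test between cisplatin and control arrays. All 6 were detected on 6 of 6 arrays, with raw foreground between 1.36 and 3.36 times the limit of the array, so none of the values is a bound. In bulk RNA, fewer cells of a type and less RNA per cell cannot be told apart. In the limma fit over the 324 tested probes, 0 of 6 had an adjusted p under 0.05, against 1 probe in the whole table (0.309%), and 0 of 6 had an unadjusted p under 0.05, against 15.7% of the tested probes. The median log2 fold change was 0.017 over the members and -0.012 over all tested probes, with 4 members positive and 2 negative. The 95% intervals of the 6 fold changes all lay between 0.777 and 1.31 in cisplatin over control.

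miR-99a-5p had raw foreground medians of 701, 719 and 720 on cisplatin arrays 1 to 3, against 636, 664 and 636 on control arrays. The raw groups did not overlap, and every cisplatin array was the brighter. After background correction and quantile normalization the log2 values were 9.35, 9.01 and 9.02 on cisplatin arrays and 9.26, 9.05 and 8.99 on control arrays, and these overlapped. Replicate 1 was the highest of its group in both. The difference was 0.026 (SE 0.12, 95% interval -0.29 to 0.34, limma adjusted p = 0.963), far below the spread between replicates.

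miR-100-5p, which shares the seed and all but 1 base with miR-99a-5p, had raw values of 558, 651 and 630 on cisplatin arrays and 562, 576 and 559 on control arrays. Its groups overlapped, because cisplatin array 1 lay below all 3 control arrays. On the normalized log2 scale it stood at 8.93, 8.81 and 8.86 on cisplatin arrays, against 9.09, 8.78 and 8.82 on control arrays. The difference was -0.028 (SE 0.099, 95% interval -0.27 to 0.22, limma adjusted p = 0.955).

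miR-99b-5p, the miR-99 family member of the chromosome 19 cluster, had raw values of 332, 423 and 431 on cisplatin arrays and 331, 379 and 347 on control arrays. Cisplatin arrays 2 and 3 exceeded every control array, while cisplatin array 1 equalled control array 1 to within 1 unit. The normalized log2 values were 7.99, 8.03 and 8.20 on cisplatin arrays, against 7.98, 8.02 and 7.91 on control arrays. The difference of 0.10 did not pass (SE 0.074, 95% interval -0.079 to 0.29, limma adjusted p = 0.595), and it was positive in 3 of 3 same-numbered pairs, at 0.011, 0.013 and 0.29. Most of it came from replicate 3, and it was 0.040 without cisplatin replicate 3.

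miR-125a-5p had the largest difference of the 6. It comes from the chromosome 19 cluster, as miR-99b-5p does, and carries the miR-125 seed. Its raw values were 357, 400 and 377 on cisplatin arrays and 299, 352 and 348 on control arrays, without overlap. Of the members, 2 of 6 had raw groups without overlap and cisplatin the higher (miR-99a-5p and miR-125a-5p), as did 9.57% of the tested probes. On the normalized log2 scale it stood at 8.12, 7.94 and 7.95 on cisplatin arrays, against 7.70, 7.84 and 7.90 on control arrays. These groups did not overlap either, as was so for 1 of 6 members and for 18.8% of the tested probes in either direction. The difference was 0.19, a 1.14-fold higher level in cisplatin (SE 0.080, 95% interval -0.0082 to 0.39), and it did not pass (limma adjusted p = 0.325).

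Same-numbered pairs of miR-125a-5p differed by 0.41, 0.10 and 0.056, so the sign was the same in 3 of 3 while the first pair was the largest by far. Arrays of the 2 groups never shared a slide position, which means that position and group cannot be told apart. Between the arrays at positions 2 (cisplatin) and 1 (control) the difference was 0.10, and in the fit of positions 4 (cisplatin) and 3 (control) it was 0.23. With slide position as a random block miR-125a-5p passed (limma adjusted p = 0.0395), a setting in which 47 probes passed and the estimated correlation within positions was -0.62. Since no position held both groups, this block cannot adjust the difference for position. The SE was 0.048 there, against 0.080 in the main fit. The limma adjusted p of miR-125a-5p lay between 0.238 and 0.967 in every other setting tried.

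miR-125b-5p, the seed partner of miR-125a-5p, had raw values of 563, 688 and 690 on cisplatin arrays and 546, 582 and 641 on control arrays. These overlapped, since cisplatin array 1 lay below control arrays 2 and 3. Its normalized log2 values were 8.95, 8.95 and 8.97 on cisplatin arrays, against 9.00, 8.80 and 9.04 on control arrays, the tightest cisplatin group of the 6 (SD 0.011, n = 3). The difference was 0.0071 (SE 0.074, 95% interval -0.18 to 0.19, limma adjusted p = 0.995).

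miR-125a-3p comes from the opposite arm of the MIR125A hairpin and carries a seed of its own. Raw values were 437, 485 and 485 on cisplatin arrays and 381, 557 and 441 on control arrays. The control arrays held both the lowest and the highest value, and control array 2 alone exceeded every cisplatin array. Normalized log2 values were 8.38, 8.23 and 8.35 on cisplatin arrays, against 8.26, 8.63 and 8.30 on control arrays. The difference was -0.075 (SE 0.12, 95% interval -0.36 to 0.21, limma adjusted p = 0.836), and it was 0.045 without control replicate 2.

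**Figure D1:**
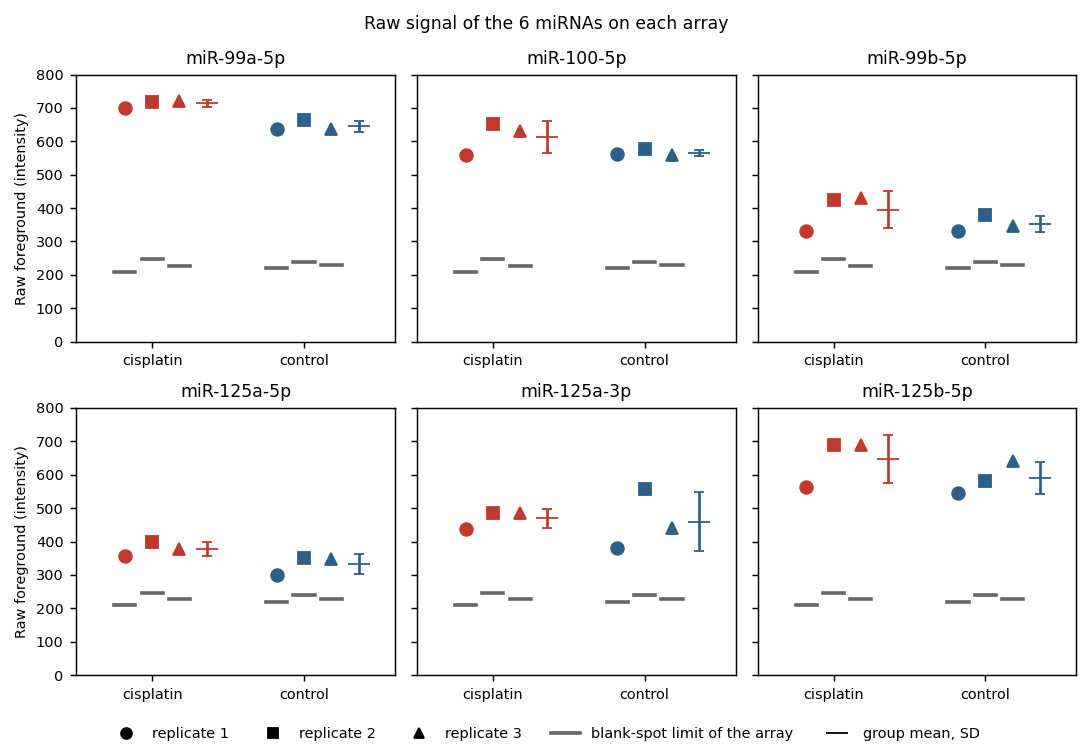
Raw foreground median (intensity) of each of the 6 miRNAs on every array, with cisplatin arrays in red and control arrays in blue. Symbols mark the replicate number, grey ticks the blank-spot limit of the array, and the horizontal marks with bars the group mean and SD (n = 3 each). All spots lie above the limit, and the groups are apart for miR-99a-5p and miR-125a-5p.

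**Figure D2:**
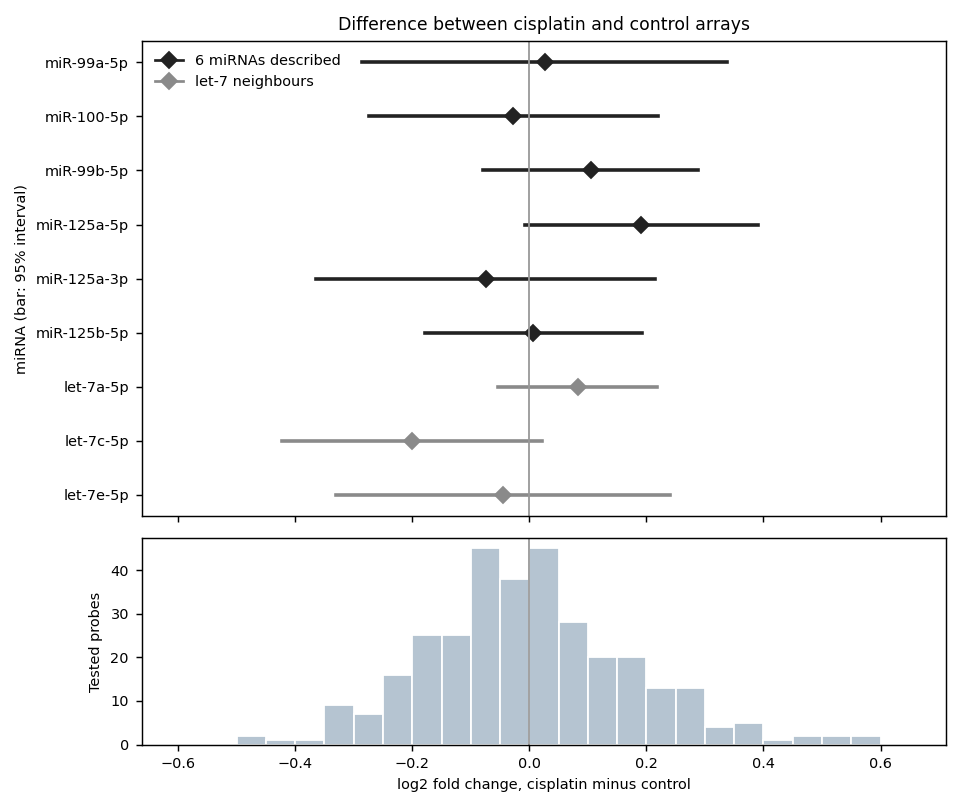
Top: log2 fold change, cisplatin minus control, of the 6 miRNAs (black) and their let-7 neighbours (grey) with 95% intervals from the limma fit. Bottom: the same quantity for all 324 tested probes. Every interval in the top panel includes 0, and miR-125a-5p at 0.19 lies farthest right.

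The raw and the normalized values of the members differed in one respect. Raw group means were higher in cisplatin for 6 of 6 members, by 2.03% for miR-125a-3p to 13.5% for miR-125a-5p, and for 191 of the 324 tested probes (59.0%). Spike control spots moved the same way, with a mean log2 foreground of 13.07, 13.36 and 13.61 on cisplatin arrays and 12.89, 13.27 and 13.34 on control arrays. Their groups overlapped. The median over all human probes went the other way, at 202, 226 and 219 on cisplatin and 214, 227 and 223 on control arrays. So did the median of the blank spots, at 184, 210 and 205 on cisplatin and 196, 212 and 206 on control arrays. The part of these array-wide levels in the raw differences was not tested. Scaling each array to its median gave log2 differences of 0.10 to 0.31 for the 6 members, all positive, in a setting where the median of all tested probes was 0.088. Scaling to the spike spots gave -0.095 to 0.11, with 3 positive, where the median of all tested probes was -0.11.

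The authors' deposited table, scaled by 1 factor per array, likewise set miR-99a-5p at 484, 508 and 526 on cisplatin arrays and 441, 420 and 468 on control arrays. In the authors' deposited table miR-125a-5p stood at 162, 190 and 176 on cisplatin arrays, against 103, 130 and 154 on control arrays. Of the members, 2 of 6 had groups without overlap and cisplatin the higher there, as did 12.1% of the 282 tested probes listed on all 6 arrays. Neither passed in a limma fit of those values (log2 differences 0.19 and 0.46, adjusted p = 0.815 and 0.532), where the median of all tested probes was 0.14.

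**Figure D3:**
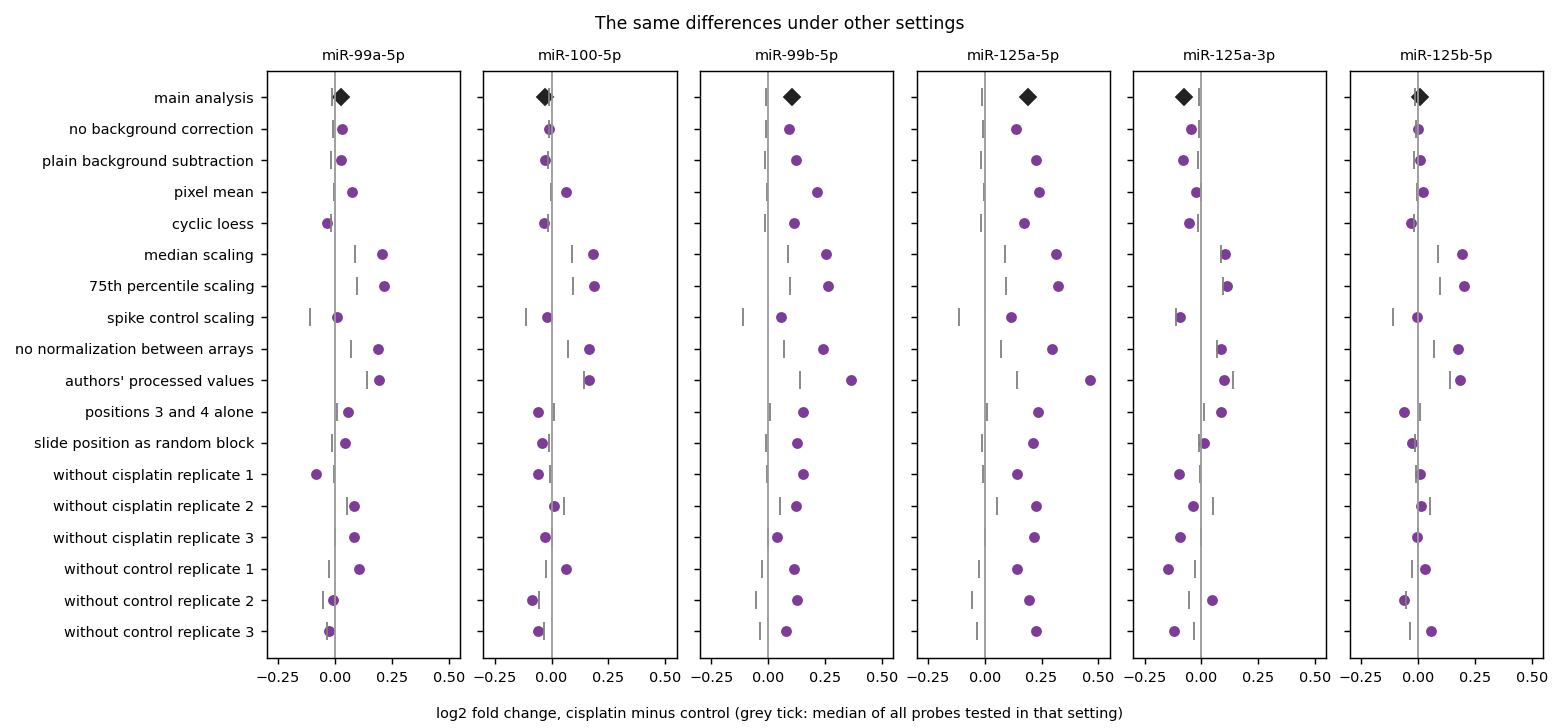
Log2 fold change, cisplatin minus control, of each miRNA under other background corrections, normalizations, slide position settings and with each array left out. Diamonds mark the main analysis and grey ticks the median of all probes tested in that setting. miR-99b-5p and miR-125a-5p lie right of 0 in every setting drawn, and the other 4 lie on both sides.

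Related members were then compared with each other, by the difference of their normalized log2 values within each array. This asks whether they changed unequally and not which is more abundant, since probes can differ in brightness. In the main analysis the widest gap was between the 2 arms of MIR125A. miR-125a-5p minus miR-125a-3p was -0.26, -0.29 and -0.40 on cisplatin arrays, against -0.55, -0.79 and -0.40 on control arrays, so that the third cisplatin and the third control array nearly met. The change was 0.27 (exact two-sided permutation p = 0.1, the smallest that 3 against 3 allows, adjusted p = 0.6 over 6 pairs). It was 0.15 without control replicate 2, where that of miR-125a-5p minus miR-125b-5p was wider, at 0.26. Without cisplatin replicate 1 it was 0.239, against 0.240 for miR-99b-5p minus miR-99a-5p. The seed partners miR-125a-5p and miR-125b-5p differed in their change by 0.18 (exact permutation p = 0.3, adjusted p = 0.84).

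Within the miR-99 and miR-100 family the changes were closer. miR-99a-5p minus miR-100-5p averaged 0.26 ± 0.14 on cisplatin arrays and 0.21 ± 0.060 on control arrays (SD, n = 3 each, exact permutation p = 0.7, adjusted p = 0.84). miR-99b-5p minus miR-99a-5p averaged -1.06 ± 0.28 on cisplatin arrays and -1.13 ± 0.13 on control arrays (SD, n = 3 each, exact permutation p = 0.7, adjusted p = 0.84). Cluster partners gave changes of -0.086 for miR-99b-5p minus miR-125a-5p on chromosome 19 and 0.019 for miR-99a-5p minus miR-125b-5p, which share chromosome 21 (exact permutation p = 0.6 and 1, adjusted p = 0.84 and 1). Of the 6 pairs, 0 passed, and none could have, since 3 against 3 allows no p under 0.1. The count therefore does not say whether related members changed unequally.

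The other arms of the hairpins were near the blank spots. miR-100-3p and miR-125b-1-3p were above the limit on 0 of 6 arrays, miR-99a-3p and miR-99b-3p on 2 of 6, and miR-125b-2-3p on 3 of 6. Raw foreground of these 5 probes ran from 183 to 245 on cisplatin arrays and from 196 to 243 on control arrays. None of them entered the test, which needed all 3 arrays of a group above the limit. MIR125A was thus the 1 hairpin of 6 with both arms above the limit on every array. miR-125b-1-3p and miR-125b-2-3p are the arms that could tell the chromosome 11 and 21 genes of miR-125b apart, and neither entered the test.

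**Figure D4:**
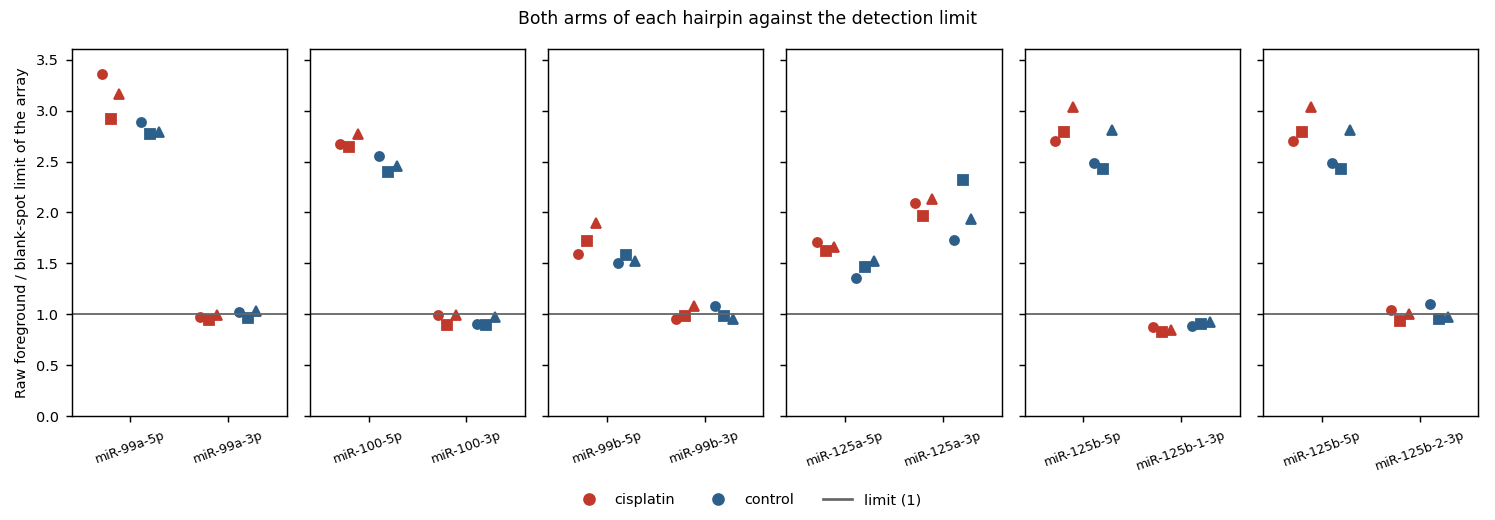
Raw foreground divided by the blank-spot limit of the array for the 5p and 3p arm of each hairpin, with cisplatin arrays in red and control arrays in blue, and circles, squares and triangles for replicates 1, 2 and 3. The grey line at 1 is the limit. The 5p arms lie above it on every array, and that of miR-125a is the 1 3p arm drawn that does so.

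The let-7 miRNAs of the same clusters, which act as suppressors of growth genes, were detected on all 6 arrays, and 0 of 3 passed. let-7e-5p, from between MIR99B and MIR125A, had raw values of 283, 306 and 278 on cisplatin arrays and 262, 290 and 303 on control arrays (log2 fold change -0.045, SE 0.11, limma adjusted p = 0.910). let-7c-5p, printed on the array as let-7c and neighbour of MIR99A, had raw values of 229, 259 and 228 on cisplatin arrays and 250, 258 and 271 on control arrays (log2 fold change -0.20, SE 0.089, limma adjusted p = 0.354). let-7a-5p, which also comes from genes outside these clusters, stood at 0.082 (SE 0.054, limma adjusted p = 0.566). The normalized groups of let-7c-5p did not overlap, with cisplatin the lower, as was so for 18.8% of the tested probes in either direction. Those of let-7e-5p and let-7a-5p overlapped. The neighbours thus lay on both sides of 0, as the members did. miR-10a-5p and miR-10b-5p, relatives of miR-100 with another seed, were above the limit on 0 and 2 of 6 arrays and were not tested.

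Likeness between miRNAs was measured as the root mean square difference of their log2 values over the 6 arrays, each centred on its own mean. Among the 15 pairs of members it ranged from 0.0904 to 0.203. The smallest was that of miR-99a-5p and miR-100-5p, the pair that differs at 1 base, and miR-100-5p and miR-125b-5p followed at 0.0988. Cross-hybridisation was not tested. The 5 pairs with miR-125a-3p lay between 0.153 and 0.203.

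Among the 317 other tested probes with 1 name, the 2 nearest to each member were listed. They were miR-1234-5p (0.0333) and miR-6126 (0.0372) for miR-99a-5p, miR-4459 (0.0455) and miR-4739 (0.0503) for miR-100-5p, and miR-16-5p (0.0596) and miR-1237-5p (0.0711) for miR-99b-5p. For miR-125a-5p they were miR-1247-3p (0.0310) and miR-4695-5p (0.0574), for miR-125b-5p miR-28-3p (0.0376) and miR-575 (0.0532), and for miR-125a-3p miR-532-5p (0.0523) and miR-296-5p (0.0614). The median over all such probes was 0.163 to 0.193, depending on the member. Arrays and normalization are shared by all probes, and 6 arrays give many probes a close match.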

How the data were processed

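The authors deposited 1 scanner file per array in linear intensity units. Its columns hold the pixel median for the foreground and for the surrounding background of a spot, per the file headers. The labels name a red dye, Hy5, whereas those headers name a channel of shorter wavelength. Nothing at hand settles this difference, and the values were used as the single channel of each array. The authors' deposited value table also holds intensity. Compared array by array, it is the foreground less 1 level per array, times 1 factor that sets its median to 31 (largest residual 5.4e-06). The scanner software is not given in the sources at hand.

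Background was corrected with normexp (offset 50), human probes were quantile-normalized, and log2 values were fitted with lmFit and eBayes in limma 3.58.1 (R 4.3.3), with Benjamini-Hochberg adjustment over the 324 probes detected on all 3 arrays of a group. Of these steps, only the limma fit with its adjustment was run on simulated log2 values. Background correction, normalization and the detection filter were not simulated. Sequences, strands and gene intervals are from RefSeq tables of GRCh38.p14, and figures were drawn with matplotlib 3.10.9. Named are the members, their other arms, cluster neighbours, seed relatives, cell markers and the 2 nearest probes to each member. Members and lists were chosen with earlier results of these data known.

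Same-numbered samples deviated together (correlations of 0.44, 0.24 and 0.20 over the tested probes). Samples with different numbers had correlations from -0.35 to 0.23, the highest for cisplatin 2 with control 3, so pairing by number is not established. The numbers served only for the same-numbered differences and the replicate block. The main limma fit and the permutation tests were unpaired. Alternatives covered background, normalization, pixel summary, filter, moderation, position, pairing and each array left out, with the remaining arrays normalized and filtered anew. A block for slide positions 1 and 2 against 3 and 4 was added after seeing the data.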

Additional observations from a re-analysis of the deposited data

How the results depend on the processing

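No member passed in any setting except miR-125a-5p with slide position as a random block (1 member, 0.21, limma adjusted p = 0.0395), and leaving out arrays kept its log2 fold change at 0.14 to 0.22. The random block cannot adjust for position, since no position held both groups. With the replicate block 0 members and 0 probes passed, and miR-125a-5p had a limma adjusted p of 0.406. miR-99b-5p and miR-125a-5p kept their direction in all 22 settings. No filter, detection on all 6 arrays, trend and robust moderation, the replicate block and the position-halves block must return the main log2 fold changes. They are therefore not separate checks of direction. The directions of the other 4 members turned, all at values that did not pass. For miR-100-5p and miR-125a-3p the values were 0.18 and 0.10 with median scaling, 0.19 and 0.11 with the 75th percentile, 0.16 and 0.087 without normalization and 0.16 and 0.098 with the authors' values, where all tested probes shifted by 0.088, 0.095, 0.071 and 0.14. Less that shift they were 0.092 and 0.016 in the first 3 and 0.022 and -0.043 in the last, against -0.016 and -0.063 in the main fit. miR-100-5p was 0.065 with pixel means. miR-125a-3p was 0.088 at positions 3 and 4 alone and 0.0097 with position as a random block. miR-125b-5p was -0.061 and -0.028 there, -0.030 with cyclic loess and -0.0047 with spike control scaling. The median of all tested probes under spike control scaling was -0.11. miR-99a-5p was -0.034 with cyclic loess. The members' median was 0.20, 0.21, 0.18 and 0.19 in those 4 scalings and -0.031 with cyclic loess. Pair differences turned only with cyclic loess, to -0.0023 for miR-99a-5p minus miR-100-5p and -0.0044 for miR-99a-5p minus miR-125b-5p, and when arrays were left out. Median, 75th percentile and spike control scaling must give the same pair differences as no normalization, since a constant per array cancels. They are therefore not separate checks of the pairs. The cause of the turned directions was not tested.

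With 1 array left out, log2 values ranged from -0.087 to 0.064 (miR-100-5p), -0.14 to 0.045 (miR-125a-3p), -0.063 to 0.056 (miR-125b-5p), -0.085 to 0.11 (miR-99a-5p) and -0.026 to 0.085 (the members' median). Pair differences ranged from -0.024 to 0.11 (miR-99a-5p minus miR-100-5p), -0.095 to 0.087 (miR-99a-5p minus miR-125b-5p), -0.17 to 0.013 (miR-99b-5p minus miR-125a-5p) and -0.043 to 0.24 (miR-99b-5p minus miR-99a-5p).

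The number of probes that passed was 1, and 3 without background correction, 3 with the 75th percentile, 2 with median scaling, 4 with cyclic loess and 47 with position as a random block. It was 0 in limma fits without normalization, with spike scaling, pixel means, the authors' values, no filter, detection on all 6 arrays, trend and robust moderation, the replicate block and positions 3 and 4 alone, with 33, 13, 39, 26, 97, 39, 38, 57 and 71 probes at an unadjusted p under 0.05, and 0 whichever array was left out (47 to 85 at an unadjusted p under 0.05).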
